A study of Macaca mulatta with 28 samples.

Results

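The central nucleus of the amygdala is the main output station of the amygdala. Most of its neurons release GABA together with peptides such as enkephalin, dynorphin, somatostatin and corticotropin-releasing hormone, and it is studied in alcohol research for its part in stress, anxiety and drinking. With age, brain tissue of primates is known to change in myelin, astrocyte, microglia and complement genes, and young adult brains keep some immature neurons in the amygdala. An older and a younger cohort of rhesus macaques (Macaca mulatta) were compared here among lighter ethanol drinkers only, so no animal labelled as a heavy drinker entered the contrast.

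The comparison held 11 of the 28 animals of the series, chosen by the labels alone. All were male, had never been in an experiment before, were induced to drink 4% ethanol (w/v) over about 90 days, and then had ethanol, water and meals for 22 hours a day for over 12 months. Cohort 4 gave 7 lighter animals (4 low drinkers, LD, and 3 binge drinkers, BD). Its average age was 8.24 years at induction and 9.98 years after open access. Cohort 7a gave 4 lighter animals (3 LD and 1 BD), with average ages of 4.18 years and 5.7 years. LD and BD are the lighter drinking categories in the labels; heavy (HD) and very heavy (VHD) drinkers are the heavier ones. None of these animals was free of ethanol, and the labels give cohort averages of age, not each animal's age. Age therefore cannot be told apart from anything else that a cohort shared, such as its rearing, its time of study or the handling of its tissue.

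Each animal gave 1 library, made from total RNA of a dissected block that contained the central amygdala. The lighter animals of cohort 4 had 1910514 to 25928489 reads in the gene table, and those of cohort 7a had 12796988 to 17106484. Replicates 1 and 2 of cohort 4 were the shallow libraries, with 6474295 and 1910514 reads, and each comparison was repeated without them. All values are reads scaled by 1 upper-quartile factor per library by the authors, called normalised reads below. In the block of replicate 2, 1 read is worth 8.02 normalised reads.

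Genes that mark the central amygdala were present in all 11 blocks. PRKCD, a kinase that marks one of its main neuron classes, ranged from 356 to 771 normalised reads in cohort 4 and from 393 to 609 in cohort 7a. The blocks also held genes of neighbouring tissue in very unequal amounts. TBR1, a transcription factor of cortical and basolateral glutamatergic neurons, was at 5.76 in the lowest and 560 in the highest animal of cohort 4. CHAT, which makes acetylcholine in basal forebrain neurons, was at 0 to 123 in cohort 4, and at 606, 43.7, 8.11 and 826 in replicates 1 to 4 of cohort 7a. Replicates 1 and 4 of cohort 7a were thus the 2 animals highest in CHAT, and values with both left out, a setting chosen after the data were seen, are given beside many of the results below. That setting keeps only replicates 2 and 3 of cohort 7a, against all 7 lighter animals of cohort 4. Of the 10 blood genes listed, 6 were in the table, 2 of these were at 0 in all 11 animals and none reached the level needed for testing.

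No gene differed between the cohorts past the threshold. Of 12773 genes with at least 10 normalised reads in at least 4 of the 11 animals, 0 (0%) had an adjusted p under 0.05 in limma, and the lowest adjusted p was 0.999. The count tests on the recovered reads called 0 genes as well, with 364 genes at an unadjusted p under 0.05 in edgeR and 427 in DESeq2. In limma, 323 genes lay at an unadjusted p under 0.05, against 638.65 that would lie there if no gene differed. These were 133 higher in cohort 4 (1.04% of all tested) and 190 lower (1.49%). The groups did not overlap, with every cohort 4 animal above every cohort 7a animal, for 28 genes (0.219%), and with every cohort 4 animal below for 11 genes (0.0861%). Without the shallow libraries, limma again called 0 genes, with 476 at an unadjusted p under 0.05 and a lowest adjusted p of 0.875. Without the 2 animals highest in CHAT it called 0 genes, with 70 at an unadjusted p under 0.05. Only replicates 2 and 3 of cohort 7a were left there, and the effect of the smaller group was not tested.

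The precision of the comparison was as follows. The 95% interval of the fold between cohorts lay within 2-fold in either direction for 86.5% of the genes and within 1.5-fold for 64.1%. The median log2 difference over all genes tested, cohort 4 minus cohort 7a, was -0.01, and 46.8% of genes were higher in cohort 4. Only 125 genes had a log2 difference beyond 1 in either direction, and 43 of them had a mean of at least 50 normalised reads. Since no gene passed, the genes below are described by their values and intervals, and their adjusted p in limma was 0.999 in every case.

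The 10 genes with the lowest p among those higher in cohort 4 were PLAT, KDR, DDX26B, ARHGAP10, KIAA0226L, N6AMT2, DPM1, MARCH7, PDE3B and AIM2. PLAT encodes tissue plasminogen activator, a protease that also acts at synapses. It was at 277 to 393 normalised reads in cohort 4 (median 366) and at 224, 267, 276 and 258 in replicates 1 to 4 of cohort 7a. The groups touched but did not overlap, and the means were 357 ± 39.4 (SD, n = 7) and 256 ± 22.5 (SD, n = 4), a fold of 1.39 with a 95% interval of 1.16 to 1.66. ARHGAP10, which turns off small GTPases, was at 279 to 633 (median 352) against 229, 253, 255 and 192. Its highest value came from the shallowest library, and its fold was 1.61 (95% interval 1.19 to 2.18), or 1.47 without the shallow libraries.

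DPM1, a subunit of the enzyme that supplies mannose for protein glycosylation, was at 410 to 536 (median 471) in cohort 4 and at 337, 337, 402 and 384 in cohort 7a. Its fold of 1.27 (95% interval 1.09 to 1.50) hardly moved: it was 1.30 without the shallow libraries and 1.26 without the 2 animals highest in CHAT. MARCH7, a membrane-associated ubiquitin ligase, was at 1436 to 1917 against 1301, 1352, 1372 and 1291, a fold of 1.21 (95% interval 1.06 to 1.38) with no overlap. N6AMT2, a methyltransferase, also had no overlap, with 440 to 639 against 358, 405, 415 and 426 and a fold of 1.30. KDR, the main VEGF receptor of endothelial cells, was at 266 to 345 against 182, 235, 267 and 199, so its groups overlapped by 1 animal of each cohort. Its fold was 1.39 (95% interval 1.15 to 1.68), and 1.21 without the 2 animals highest in CHAT.

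AIM2, a sensor of cytosolic DNA that starts inflammasome signalling, was at 65.3 to 138 (median 93.0) in cohort 4 and at 52.7, 72.6, 66.7 and 64.5 in cohort 7a. The fold was 1.59 (95% interval 1.15 to 2.21), and 1 cohort 4 animal lay within the range of cohort 7a. DDX26B, KIAA0226L and PDE3B, the last a phosphodiesterase of cyclic nucleotides, had folds of 1.36, 1.42 and 1.35 with overlapping groups. At lower levels, and chosen for their gaps after the values were seen, were STK31 and TSSK3, kinase genes best known from testis. No cohort 7a animal reached the 10 normalised reads of the filter for either gene. Both were thus tested only because cohort 4 was high, so their gaps are no support for a difference. STK31 was at 10.1 to 21.2 normalised reads in cohort 4 and at 2.88, 2.79, 1.80 and 3.52 in cohort 7a. TSSK3 was at 8.47 to 16.5 in cohort 4 and at 1.92, 3.72, 3.61 and 3.52 in cohort 7a. In cohort 7a such levels are a few reads per library, and the shallowest library's values of 16 for both genes rest on 2 reads each.

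**Figure D1:**
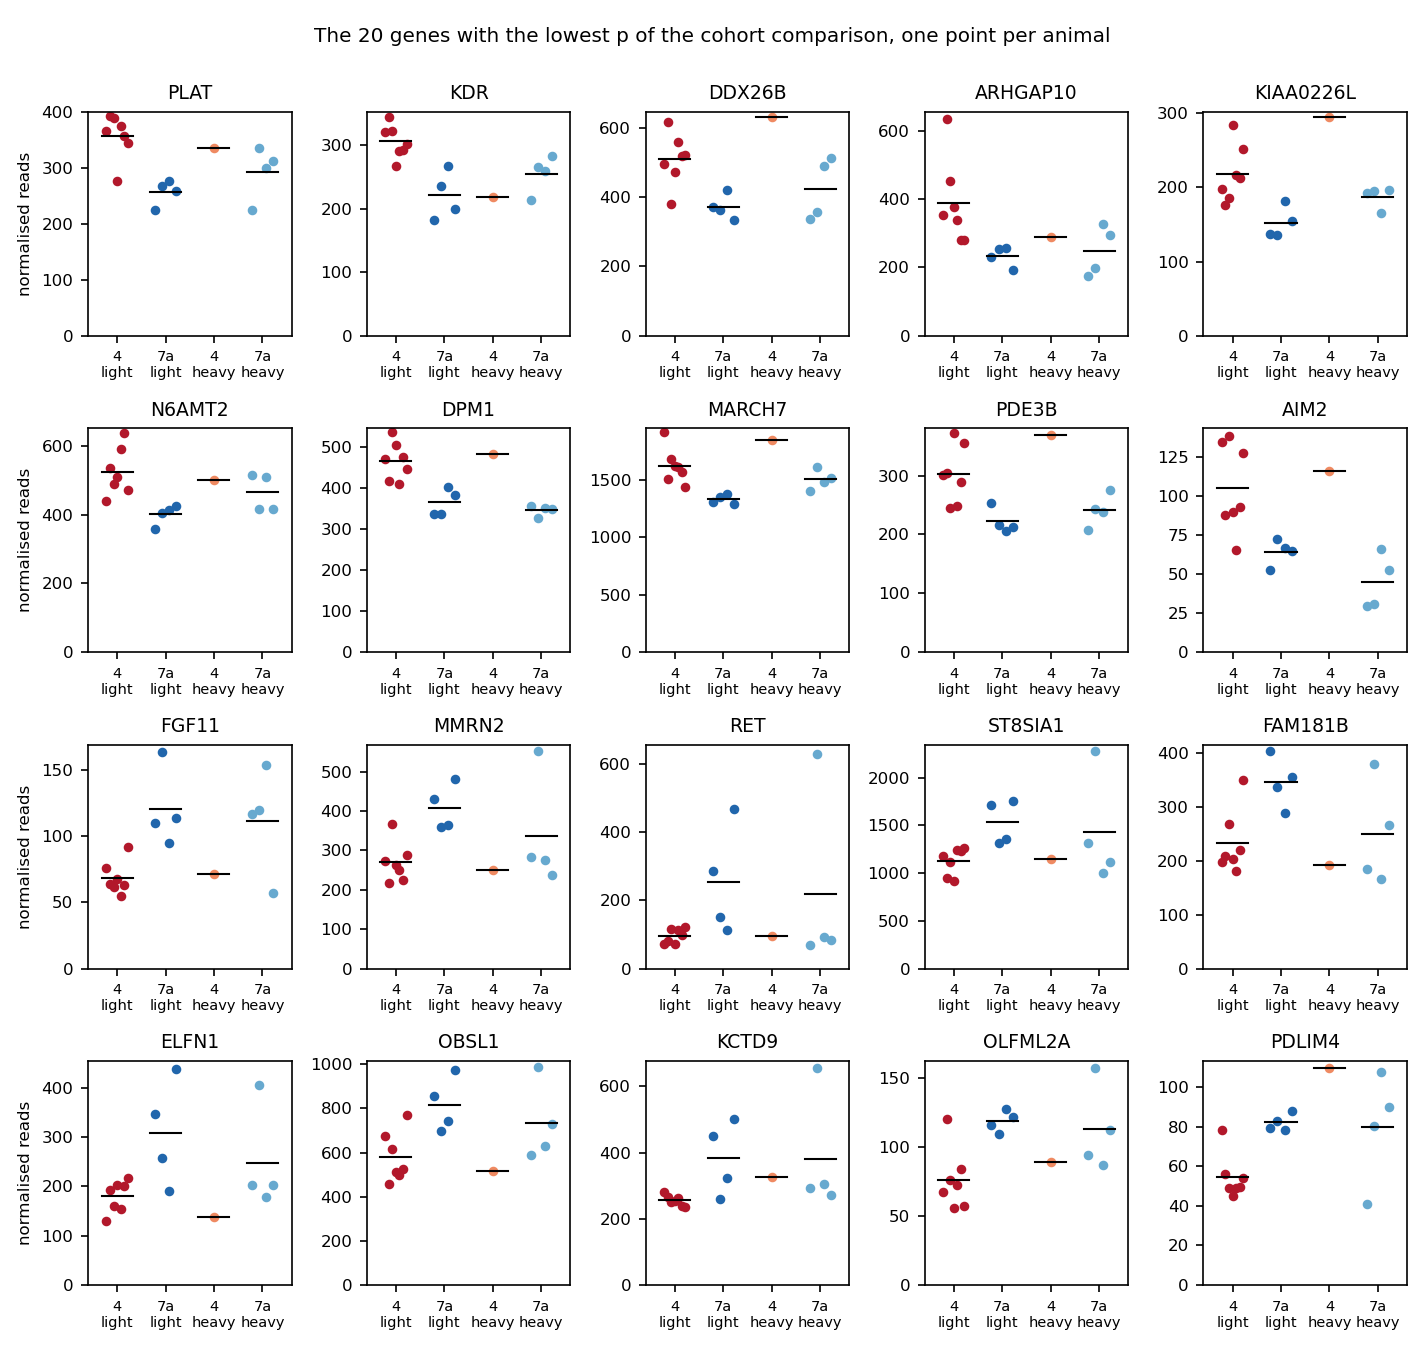
Normalised reads (y axis, from 0) of the 20 genes with the lowest p, 10 higher and 10 lower in cohort 4, in each lighter and heavier animal of cohorts 4 and 7a (x axis). Points are animals and black lines are group means; PLAT, ARHGAP10, N6AMT2, DPM1, MARCH7, FGF11 and ST8SIA1 have no overlap between the lighter groups, and the single heavier animal of cohort 4 has no spread.

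On the lower side the 10 genes were FGF11, MMRN2, RET, ST8SIA1, FAM181B, ELFN1, OBSL1, KCTD9, OLFML2A and PDLIM4. FGF11, an intracellular fibroblast growth factor family member, was at 54.5 to 91.4 normalised reads in cohort 4 (median 64.1) and at 110, 164, 94.7 and 114 in cohort 7a. All 7 older-cohort animals lay below all 4 younger-cohort animals, and the fold was 0.576 (95% interval 0.432 to 0.769). It was 0.569 without the shallow libraries and 0.547 without the 2 animals highest in CHAT. ST8SIA1, the sialyltransferase that makes the ganglioside GD3, was at 914 to 1261 against 1709, 1320, 1356 and 1754. Its groups did not overlap either, with a fold of 0.736 (95% interval 0.611 to 0.886).

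RET, the signalling receptor for GDNF-family ligands, had the lowest fold of the 20 genes, 0.430 (95% interval 0.264 to 0.701). It was at 70.8 to 122 normalised reads in cohort 4 and at 287, 151, 114 and 468 in cohort 7a, where the 2 animals highest in CHAT were the highest. Without them its fold was 0.718. KCTD9 followed the same animals (450, 260, 322 and 501 in cohort 7a, 236 to 281 in cohort 4), and its fold of 0.689 became 0.883 without them. ELFN1, a synaptic adhesion protein of some interneurons, went from 0.604 to 0.800 in the same way. Those 2 animals were also the highest of cohort 7a for ST8SIA1, MMRN2, OBSL1 and FAM181B. OBSL1 was at 854, 697, 745 and 973 in replicates 1 to 4 of cohort 7a, and FAM181B at 405, 338, 289 and 356. They were not both the highest for FGF11, OLFML2A and PDLIM4. The part of the cholinergic tissue in any of these results was not tested beyond these values.

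MMRN2, an extracellular matrix protein of endothelium, was at 216 to 367 (median 264) in cohort 4 and at 430, 360, 364 and 481 in cohort 7a. Its fold was 0.655 (95% interval 0.523 to 0.820). Its neighbour in cell type, KDR, leaned the other way, as given above. OLFML2A, another secreted matrix protein, was at 55.7 to 120 against 116, 110, 128 and 122, a fold of 0.626 that was 0.627 without the 2 animals highest in CHAT. PDLIM4, a cytoskeletal adaptor protein, had a fold of 0.657, and 6 of its 7 cohort 4 values lay below cohort 7a's 79.6, 82.8, 78.4 and 88.0, with the shallow replicate 1 apart at 78.6. FAM181B and OBSL1, the latter a cytoskeletal adaptor, had folds of 0.661 and 0.705 with overlapping groups. BIRC5, survivin, an inhibitor of apoptosis needed in dividing cells, was chosen after its values were seen. It was at 0 to 33.6 normalised reads in cohort 4 (median 7.03) and at 40.3, 44.7, 67.6 and 150 in cohort 7a, with no overlap. With a cohort 4 median under 10, it passed the filter only because cohort 7a was high.

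The heavier drinkers offered the same cohort contrast in other animals, though with only 1 heavier animal in cohort 4 against 4 in cohort 7a. The sign of the difference was the same as in the lighter animals for 6744 of the 12773 genes (52.8%), and for 213 of the 323 genes at an unadjusted p under 0.05 (65.9%). Among the 20 genes above, 18 had the same sign. AIM2 was at 116 in the heavier animal of cohort 4 and at 29.6, 31.0, 66.1 and 52.7 in those of cohort 7a, a fold of 2.70. With 1 animal in an arm, the spread behind any interval of this contrast comes from the other groups of the 28-animal fit. DPM1 was at 484 against 356, 327, 351 and 350, a fold of 1.40. The exceptions were KDR, at 0.858, and PDLIM4, at 1.45. BIRC5 was at 71.1 against 8.22, 101, 11.7 and 36.2, so the gap seen in lighter animals was not there. STK31, at 14.2 against 9.86, 10.9, 4.13 and 7.41, and TSSK3, at 18.3 against 14, 10.9, 8.26 and 6.59, kept their sign with closer values.

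The difference between both contrasts was tested as an interaction over all 28 animals, and limma called 0 of 12773 genes (0%), with 1409 at an unadjusted p under 0.05. Without the 2 shallow libraries the same test called 364 genes, 102 of them with a cohort difference that was higher in the lighter animals and 262 with one that was lower. This count rests on the 1 heavier animal of cohort 4, whose library was also among the shallow ones of the series at 7412823 reads.

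**Figure D2:**
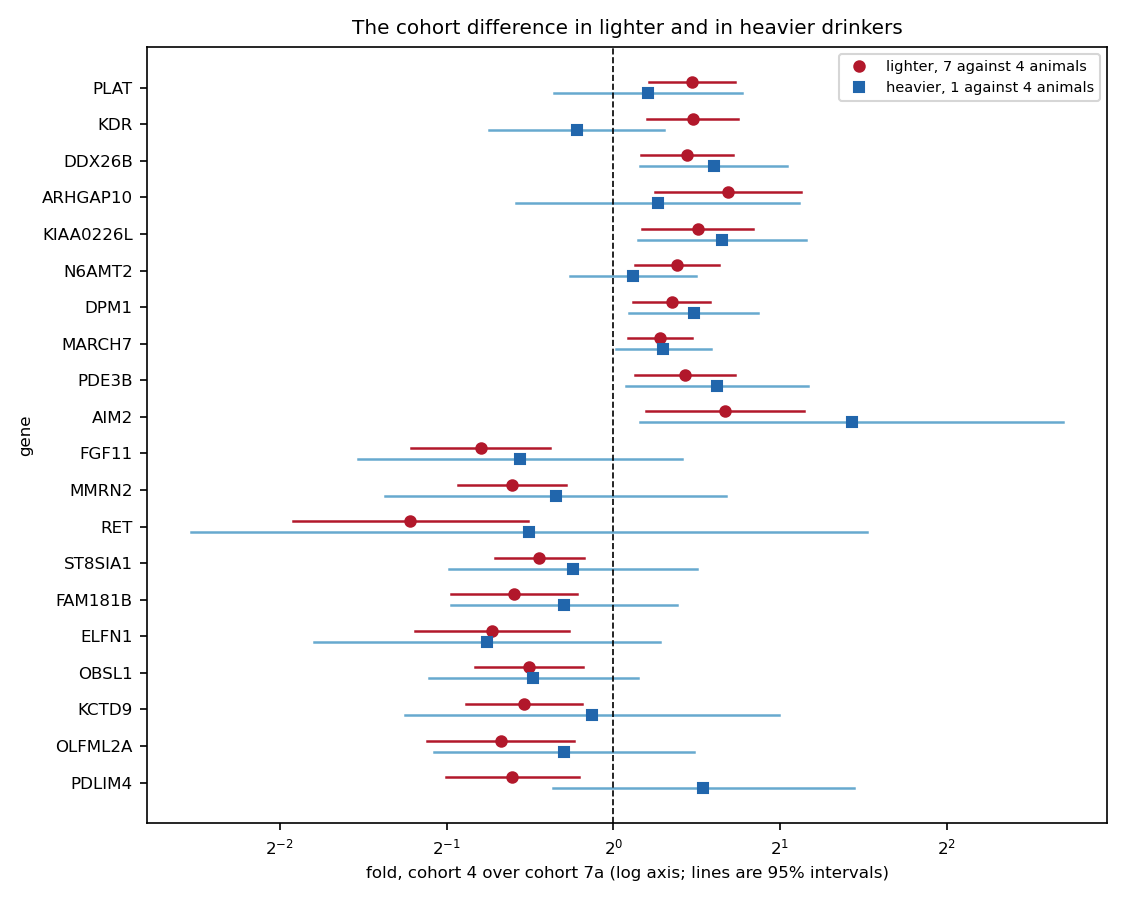
Fold of cohort 4 over cohort 7a (x axis, log scale) for the 20 genes of lowest p (y axis), in the lighter animals (circles, 7 against 4) and the heavier ones (squares, 1 against 4), with 95% intervals as lines, those of the heavier contrast resting on the spread within the other groups. KDR and PDLIM4 lie on opposite sides of 1 in the 2 contrasts, and the intervals of the heavier contrast are wider for most genes.

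Peptides of the central amygdala were not separated by cohort. The median log2 difference over the 14 peptide genes tested was -0.33, against -0.01 over all genes, with 3 higher and 11 lower in cohort 4 and none past the threshold. PENK, the enkephalin precursor, spread more within cohorts than between them: 1293 to 20051 normalised reads in cohort 4 (median 4883) and 8343, 3018, 18740 and 7389 in cohort 7a. Its fold was 0.691 with a 95% interval of 0.254 to 1.88. CRH, the corticotropin-releasing hormone gene, was at 16 to 74.1 against 58.5, 40.0, 59.5 and 64.5, a fold of 0.771 (95% interval 0.467 to 1.27). SST, the somatostatin gene, had a fold of 0.798 and a wide interval of 0.450 to 1.41. PDYN, the dynorphin precursor, at 0.931, and NPY, neuropeptide Y, at 0.855, were nearer to 1. The list's median was -0.16 without the shallow libraries and -0.08 without the 2 animals highest in CHAT.

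Receptor and identity genes of the central amygdala had 5 members higher and 11 lower of 16, with a median log2 difference of -0.17, or -0.05 without the 2 animals highest in CHAT. OXTR, the oxytocin receptor, was at 10.1 to 45.7 normalised reads in cohort 4 (median 23.1) and at 140, 41.9, 31.6 and 253 in cohort 7a. Its fold of 0.313 (95% interval 0.140 to 0.699) was 0.704 without the 2 animals highest in CHAT. ZIC1, a transcription factor of the developing forebrain, went from 0.429 to 0.996 in the same step, and OPRK1, the dynorphin receptor, from 0.692 to 0.794. In heavier animals the fold of OXTR was 1.26, and the animal at 197 normalised reads there was replicate 2 of cohort 7a, which also had the highest CHAT of its group, 1450.

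The largest list median of the comparison belonged to genes of hypothalamus and basal forebrain, -1.31 on the log2 scale, with 0 members higher and 10 lower of 10 tested. None passed the threshold, and 2 of 10 were lower at an unadjusted p under 0.05, where 1.49% of all genes lay. Both of these were highest in replicates 1 and 4 of cohort 7a, so they do not count as independent. SLC5A7, the choline transporter, was at 39.7 to 429 normalised reads in cohort 4 and at 3236, 255, 106 and 4991 in cohort 7a. LHX8, a transcription factor of cholinergic neurons, had a fold of 0.327 (95% interval 0.110 to 0.976), and SLC18A3, the vesicular acetylcholine transporter, one of 0.162 (95% interval 0.0280 to 0.934). Both groups overlapped for each gene, since replicates 2 and 3 of cohort 7a lay within the range of cohort 4. Without replicates 1 and 4 of cohort 7a the median was -0.10, with 4 members higher. These animals were picked by CHAT, a member of this list, so a shift toward 0 was built into that choice. In heavier animals the list leaned the other way, at 1.14. In tissue blocks, fewer cells of a type and less RNA per cell cannot be told apart, and nor can a cohort difference from a difference in where the block was taken.

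**Figure D3:**
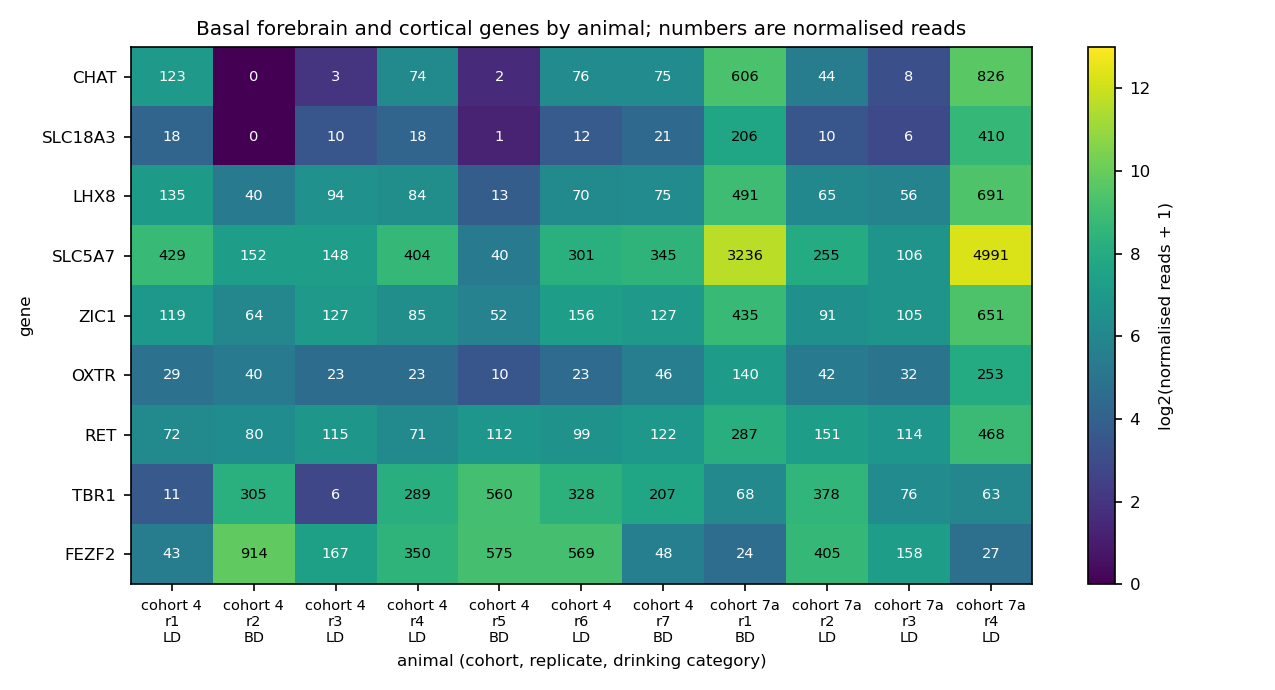
Normalised reads (numbers) of 7 genes that were high in the 2 blocks rich in CHAT and 2 cortical genes (rows) in the 11 lighter animals (columns), coloured by log2(normalised reads + 1). Replicates 1 and 4 of cohort 7a stand out for CHAT, SLC18A3, LHX8, SLC5A7, ZIC1, OXTR and RET, while TBR1 is at 11.2 and 5.76 in replicates 1 and 3 of cohort 4.

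GABAergic neuron genes were lower in cohort 4 for 11 of 12 members, with a median log2 difference of -0.40. None passed the threshold, and 3 were lower at an unadjusted p under 0.05, where 1.49% of all genes lay. CALB1, a calcium-binding protein of inhibitory neurons, was at 1298 to 2151 normalised reads in cohort 4 (median 1742) and at 3678, 1810, 1811 and 4058 in cohort 7a. The 2 animals highest in CHAT were again the highest, and the fold of 0.616 was 0.900 without them. LHX6, a transcription factor of interneurons, had a fold of 0.621. It was at 0.857 without those animals, and the list's median was then -0.21 with 0 of 12 members higher.

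Cortical and basolateral glutamatergic genes were higher in cohort 4 for 11 of 11 members, with a median log2 difference of 0.37, and none passed. FEZF2, a transcription factor of deep cortical neurons, was at 42.6 to 914 normalised reads in cohort 4 (median 350) and at 24, 405, 158 and 27 in cohort 7a. Its fold was 2.85 with a 95% interval of 0.685 to 11.9. CAMK2A, a kinase of excitatory synapses, had a fold of 1.34 (95% interval 0.944 to 1.90). Without the 2 animals highest in CHAT the list's median was -0.12 and 3 of 11 members were higher, and in heavier animals it was -0.55. Striatal medium spiny neuron genes had a median of -0.01 (5 higher and 6 lower of 11), and genes of pallidum, thalamus and habenula one of -0.23 (2 higher and 6 lower of 8). Without the shallow libraries these medians were -0.25 (3 of 11 higher) and -0.02 (3 of 8 higher).

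Receptors and synaptic genes sat near the median of all genes. GABA-A receptor subunits had a median log2 difference of 0.06 (5 higher and 4 lower of 9), glutamate receptors 0.04 (8 higher and 6 lower of 14) and synaptic vesicle release genes -0.01 (6 higher and 7 lower of 13). Axon guidance and growth genes had -0.12, with NTN1, netrin-1, at a fold of 0.724 (95% interval 0.529 to 0.989). Very long neuronal genes, whose reads spread over long transcripts, had a median of 0.04 (9 higher and 6 lower of 15). Without the 2 animals highest in CHAT the sign turned for 3 of these lists: the median was -0.06 for GABA-A receptor subunits, -0.09 for glutamate receptors and -0.02 for very long neuronal genes.

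Myelin genes were lower in cohort 4 for 18 of 18 members, with a median log2 difference of -0.30 and none past the threshold or at an unadjusted p under 0.05. CLDN11, a tight junction protein of the myelin sheath, was at 801 to 2045 normalised reads in cohort 4 (median 1041) and at 1688, 2079, 1164 and 2048 in cohort 7a. Its fold was 0.704 (95% interval 0.491 to 1.01). MAG, a myelin adhesion protein, was at 0.778, and MBP, myelin basic protein, was at 0.957 (95% interval 0.713 to 1.28), nearest to 1 among those named. The list's summed level ranged from 56199 to 112780 in cohort 4 and from 77783 to 119920 in cohort 7a, which overlap. The median was -0.32 without the shallow libraries and -0.21 without the 2 animals highest in CHAT. In heavier animals it was 0.27, with 14 of 18 members higher in cohort 4. Oligodendrocyte precursor genes had 1 higher and 9 lower of 10, with a median of -0.17.

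GFAP, the intermediate filament of astrocytes, was at 14636 to 44430 normalised reads in cohort 4 (median 30227) and at 50061, 38078, 35198 and 60195 in cohort 7a. The older cohort was the lower one, at a fold of 0.643 (95% interval 0.444 to 0.932), and the groups overlapped. CD44, a cell surface receptor for hyaluronan, had a fold of 0.643 too. Without the 2 animals highest in CHAT the fold was 0.787 for GFAP and 0.847 for CD44. Among heavier animals, GFAP was at 34167 in cohort 4 and at 17390, 99937, 19723 and 37637 in cohort 7a, with the highest value in the block of the highest CHAT. The astrocyte list as a whole had a median log2 difference of -0.07, with 5 higher and 11 lower of 16.

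Microglia genes differed little, with a median log2 difference of 0.02 and 7 higher and 6 lower of 13. P2RY12, a purine receptor of resting microglia, had a fold of 1.06 (95% interval 0.897 to 1.25). Complement and antigen presentation genes had a median of 0.16, with 9 higher and 4 lower of 13. The 3 chains of C1q, the starter of the classical complement pathway, had folds of 1.22 (C1QA), 1.24 (C1QB) and 1.25 (C1QC), and their intervals all included 1. In heavier animals these folds were 1.94, 1.89 and 1.78. C4A, a later component, leaned the other way, at 105 to 389 normalised reads in cohort 4 (median 178) and 458, 331, 354 and 400 in cohort 7a. Its fold was 0.5 (95% interval 0.303 to 0.825), but 1.37 in heavier animals, and reads of C4A may be split with its near-identical copy C4B. Interferon response genes had a median of -0.05 (6 higher and 9 lower of 15).

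**Figure D4:**
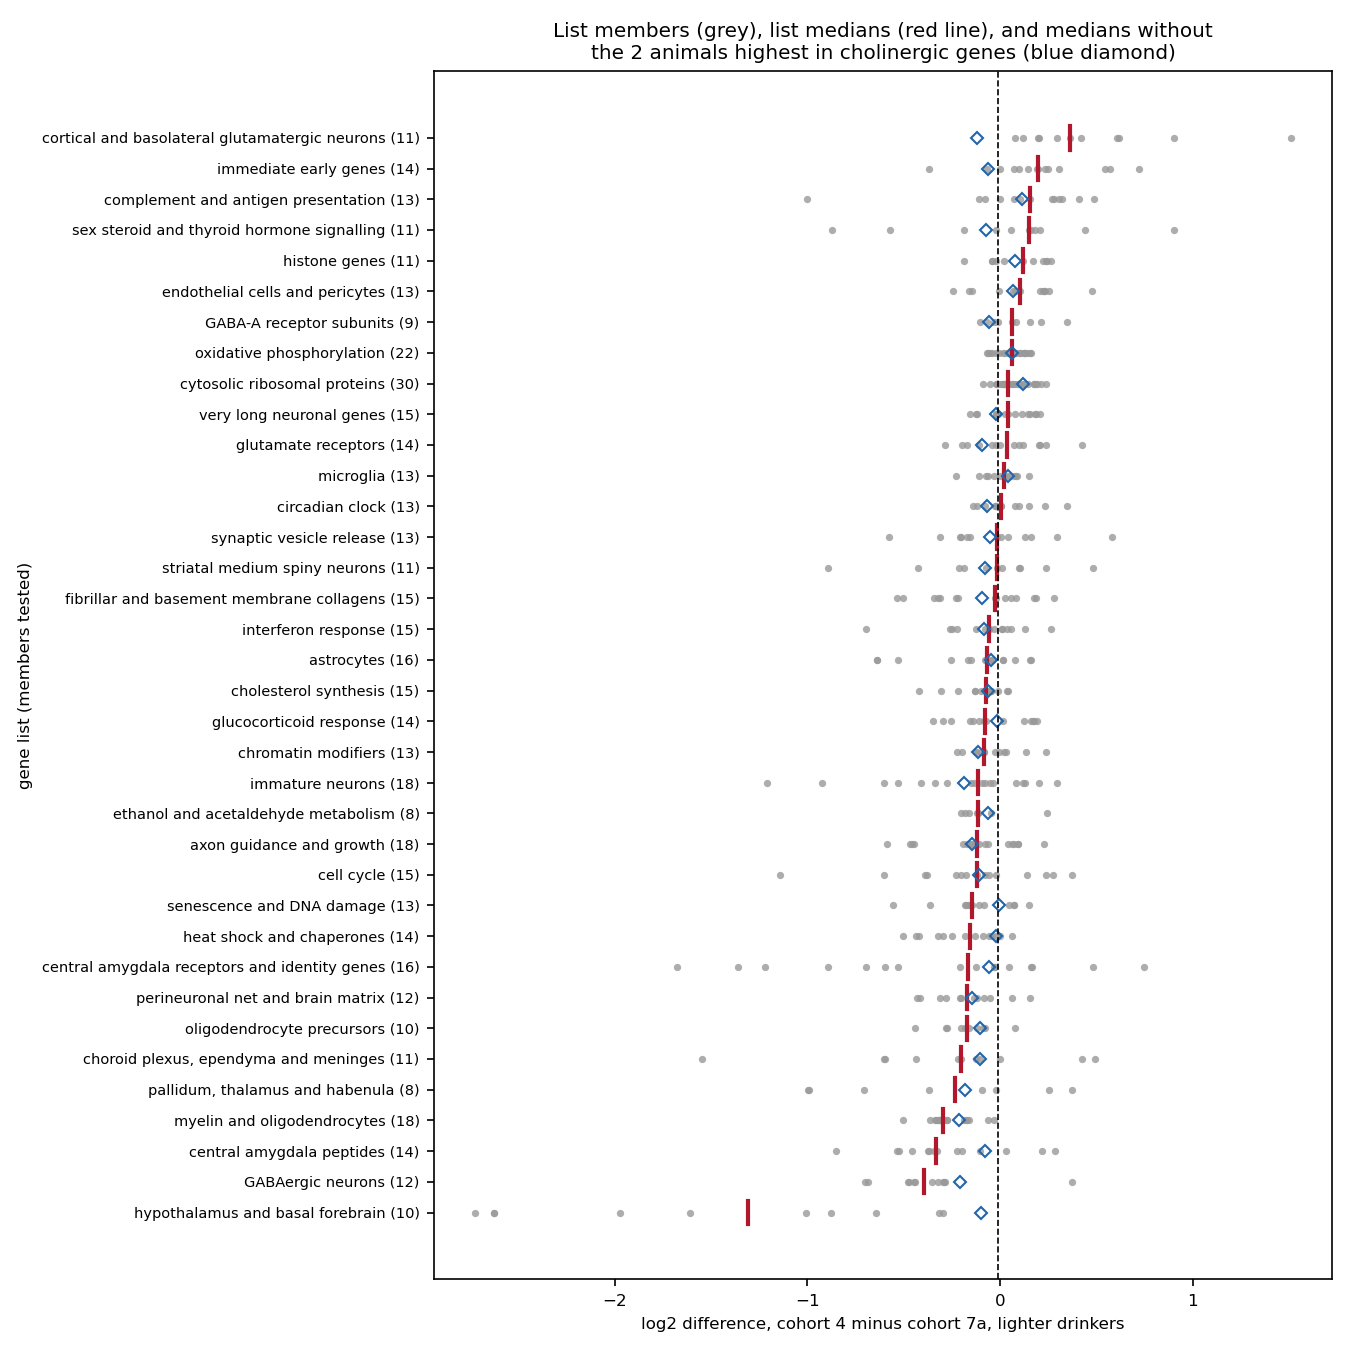
Log2 difference between cohorts (x axis, cohort 4 minus cohort 7a, lighter drinkers) of each tested member (grey points) of 36 gene lists (y axis, members tested in brackets), with the list median (red line), the median without the 2 animals highest in CHAT (blue diamond) and the median of all genes (dashed). The hypothalamus and basal forebrain list, of which CHAT is a member, is at -1.31 with all animals and at -0.10 without those 2. Most other medians lie between -0.40 and 0.20.

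Endothelial and pericyte genes had a median log2 difference of 0.10 (9 higher and 4 lower of 13), with FLT1, the other main VEGF receptor, at a fold of 1.16 beside KDR's 1.39. Collagen and basement membrane genes had -0.02 (6 higher and 9 lower of 15); COL1A2, a chain of type I collagen, had a fold of 0.855 (95% interval 0.568 to 1.29). Perineuronal net and brain matrix genes had -0.17 (2 higher and 10 lower of 12). Choroid plexus, ependyma and meninges genes had -0.20 with all animals and 0.08 without the shallow libraries. TTR, the transthyretin gene of choroid plexus, had a fold of 0.343 and a 95% interval of 0.101 to 1.16.

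Immature neuron genes had 5 members higher and 13 lower of 18 and a median log2 difference of -0.11, which was -0.01 without the shallow libraries. DCX, doublecortin, the most used marker of young neurons, had a fold of 0.966 (95% interval 0.767 to 1.22). SOX11, a transcription factor of young neurons, was at 353 to 658 normalised reads in cohort 4 (median 470) and at 729, 686, 642 and 600 in cohort 7a, a fold of 0.753 (95% interval 0.577 to 0.983). It was 0.752 without the 2 animals highest in CHAT, whereas ST8SIA4, a polysialyltransferase, went from 0.693 to 0.937, and CD24, a surface protein of young neurons, from 0.526 to 0.993. Cell cycle genes had a median of -0.12 (4 higher and 11 lower of 15) and senescence and DNA damage genes one of -0.14 (4 higher and 9 lower of 13). The latter was -0.02 without the shallow libraries and -0.01 without the 2 animals highest in CHAT.

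Cytosolic ribosomal protein genes had a median log2 difference of 0.04 with 25 higher and 5 lower of 30, and oxidative phosphorylation genes one of 0.06 with 16 higher and 6 lower of 22. The ribosomal list's summed level ran from 83753 to 155250 within cohort 4, wider than the 103200 to 120720 of cohort 7a. Its median was -0.02 without replicate 2 of cohort 4, the lowest of the repeats that left out 1 animal. It was 0.08 without the shallow libraries (27 of 30 higher) and 0.12 without the 2 animals highest in CHAT (28 of 30 higher). In heavier animals the ribosomal and oxidative phosphorylation medians were negative, -0.10 and -0.30. Heat shock and chaperone genes had 1 higher and 13 lower of 14 and a median of -0.15. HSPA1A, an inducible HSP70, had a fold of 0.704 (95% interval 0.508 to 0.976), with the caution that it shares reads with its copy HSPA1B, and HSPA5, a chaperone of the endoplasmic reticulum, had 0.800. The list's median was -0.07 without the shallow libraries and -0.02 without the 2 animals highest in CHAT, each time with 5 higher. Cholesterol synthesis genes had 2 higher and 13 lower of 15 and a median of -0.07, and without the shallow libraries 7 were higher. LSS, which closes the sterol rings, was at 350 to 496 normalised reads against 495, 432, 714 and 630, a fold of 0.748 (95% interval 0.601 to 0.933). Its fold was 0.750 without the 2 animals highest in CHAT, and 0.639 in heavier animals.

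Hormone and stimulus genes gave few separations. SLCO1C1, a thyroxine transporter of brain vessels and astrocytes, was at 223 to 453 normalised reads in cohort 4 (median 378) and at 184, 229, 334 and 81.0 in cohort 7a. Its fold was 1.87 (95% interval 1.17 to 2.99), 1.25 without the 2 animals highest in CHAT and 0.784 in heavier animals. The list of sex steroid and thyroid hormone genes had a median log2 difference of 0.15 (7 higher and 4 lower of 11). Its sign turned to -0.07 without the 2 animals highest in CHAT and to -0.11 in heavier animals, each with 4 of 11 higher. FKBP5, a stress-responsive chaperone, was at a fold of 1.09 and NR3C1, the glucocorticoid receptor, at 0.952 (95% interval 0.849 to 1.07), within a glucocorticoid response median of -0.08 (6 higher and 8 lower of 14).

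Immediate early genes had a median of 0.20 with 11 higher and 3 lower of 14, but 4 higher and a median of -0.06 without the 2 animals highest in CHAT. Circadian clock genes had 0.004 (7 higher and 6 lower of 13), or -0.07 without those animals. Ethanol and acetaldehyde metabolism genes had 1 higher and 7 lower of 8, with a median of -0.12 and ALDH2, the mitochondrial acetaldehyde dehydrogenase, at a fold of 0.869 (95% interval 0.735 to 1.03). Chromatin modifiers had -0.08 (4 higher and 9 lower of 13) and histone genes 0.12 (7 higher and 4 lower of 11).

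At the level of single exons, limma called 0 of 107638 tested exons (0%) between the cohorts. Without the shallow libraries it called 3, in KIDINS220 (higher in cohort 4, fold 2.25), DNAJC6 (fold 0.397) and SNX1 (fold 0.405), with adjusted p of 0.00761, 0.0201 and 0.0283. KIDINS220 encodes a scaffold of neurotrophin receptors. Its exon at chr2a:8814785-8814883 was at 148 to 332 normalised reads in cohort 4 (median 288), and at 129, 127, 133 and 135 in cohort 7a. The heavier animals of cohort 7a were at 339, 281, 277 and 310, within or above the range of cohort 4, and the heavier animal of cohort 4 was at 429. Coordinates here are those of the deposited exon table, whose genome build is not given in the sources used here.

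Exon use asks whether 1 exon differs from the other exons of its gene, so that the level of the gene drops out. Of 9455 genes with at least 3 tested exons, 5 (0.0529%) were called by limma's F test, and 4 of them are described: TEX2 (adjusted p = 2.27e-09), PPP2CB (adjusted p = 0.000181), DNAJC6 (adjusted p = 0.0134) and SNX1 (adjusted p = 0.0217). In each of these 4 the leading exon was used less in cohort 4, while the gene itself had a fold between 0.924 and 1.001. Tested as single exons in limma, these exons had adjusted p of 0.99986 (TEX2, PPP2CB and DNAJC6) and 0.592 (SNX1). The F test takes its error from all exons of a gene, so its p does not measure how far 1 exon spreads between animals. TEX2 and PPP2CB were called in all 11 repeats that left out 1 animal, but DNAJC6 in 2 and SNX1 in 1. The TEX2 exon passed the filter for testing only because cohort 7a was high. These repeats kept the exons chosen with all 11 animals, so the TEX2 calls in them are no independent support for a difference. With LD animals only, a setting added later, PPP2CB and SNX1 were called and TEX2 and DNAJC6 were not. With a filter of 50 normalised reads, which the TEX2 exon never reached, PPP2CB, DNAJC6 and SNX1 were called and TEX2 was not. With a pseudocount of 8 all 4 were called. Without the shallow libraries 13 genes were called, among them TEX2, PPP2CB, DNAJC6 and SNX1. Without the 2 animals highest in CHAT, TEX2 was called (adjusted p = 0.00224), while PPP2CB, DNAJC6 and SNX1 were not. Cohort 7a then held only replicates 2 and 3, at 209 and 155 for the PPP2CB exon, 455 and 385 for DNAJC6 and 93 and 109 for SNX1. The effect of the smaller group on these calls was not tested.

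In TEX2, a lipid-transfer protein of endoplasmic reticulum contacts, the exon was the last of 12 by position (chr17:57601234-57601294). It had 2, 0, 0, 2, 1, 16 and 2 normalised reads in replicates 1 to 7 of cohort 4 and 16, 24, 15 and 19 in cohort 7a. In all, 6 of the 7 older-cohort animals were thus near 0 and the seventh within the range of the younger cohort. With cohort 4 that low, the exon was tested only because cohort 7a was high, so this gap is no independent support for a difference. The heavier animals did not follow their cohorts: the heavier animal of cohort 4 had 18, and the 4 of cohort 7a had 0, 13, 17 and 2. The lighter animals of cohort 7b had 22, 18, 17 and 22.

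PPP2CB encodes a catalytic subunit of protein phosphatase 2A, and its exon (chr8:30793253-30793358) was at 30 to 161 normalised reads in cohort 4 (median 43) and at 182, 209, 155 and 164 in cohort 7a. The single high animal of cohort 4, replicate 5, lay within the range of cohort 7a. Heavier animals were at 146 in cohort 4 and at 213, 18, 37 and 153 in cohort 7a, so both ranges occurred there too. The lighter animals of cohort 7b were at 33, 54, 182 and 130.

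DNAJC6 encodes auxilin, which uncoats synaptic vesicles, and its exon 5 of 19 by position (chr1:64821927-64822049) was at 131 to 343 normalised reads in cohort 4 (median 169) and at 387, 455, 385 and 370 in cohort 7a, with no overlap. The shallow replicate 1 was the high animal of cohort 4. Heavier animals had 197 in cohort 4 and 518, 292, 196 and 180 in cohort 7a. SNX1, a sorting nexin of endosomes, had its exon (chr14:40665494-40665569) at 33 to 64 in cohort 4 (median 42) and at 96, 93, 109 and 114 in cohort 7a, again with no overlap. The heavier animal of cohort 4 was at 106, above the 81, 58, 45 and 54 of the heavier animals of cohort 7a. Lighter animals of cohort 7b had 134, 404, 360 and 364 for the DNAJC6 exon and 37, 73, 44 and 40 for that of SNX1, where none reached the level of cohort 7a. For each of these 4 exons, the 5 heavier animals of the same cohorts thus held values as low as those of cohort 4 and values near or above those of cohort 7a.

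**Figure D5:**
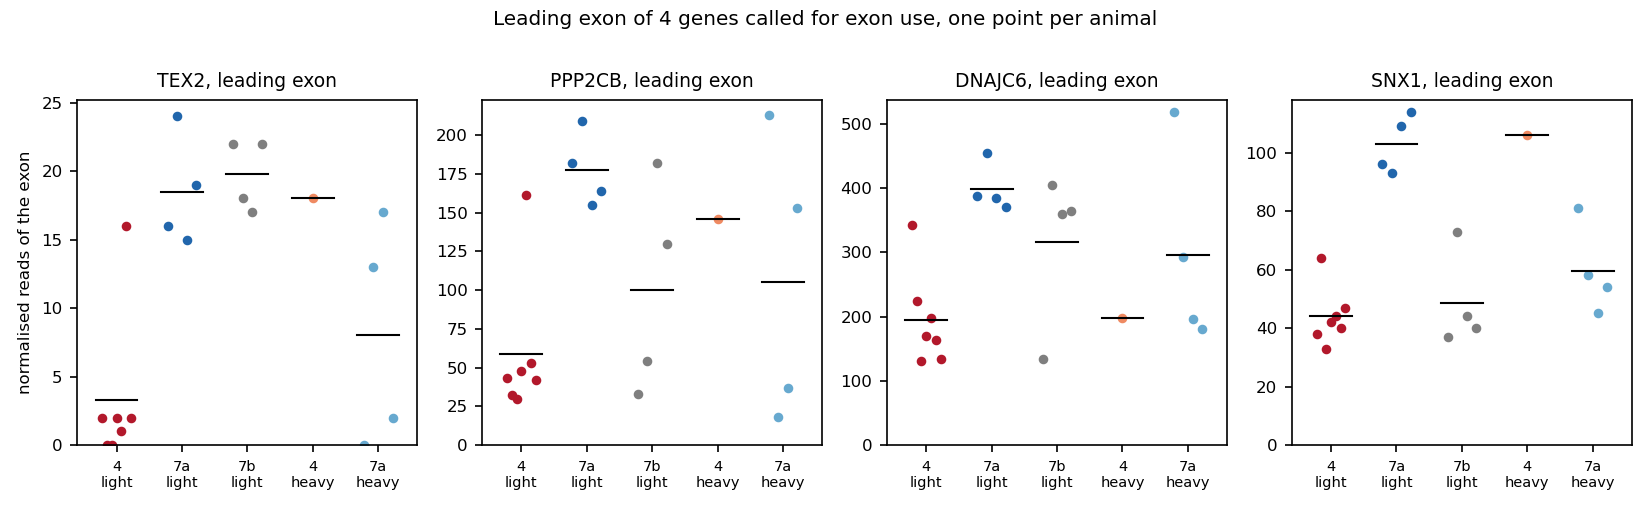
Normalised reads (y axis, from 0) of the leading exon of 4 genes called for exon use, in each animal (points) of 5 groups (x axis), with group means as lines. The 4 lighter animals of cohort 7a lie high in each panel, while the heavier animals of cohorts 4 and 7a hold both low and high values in each panel.

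With all animals, and outside the threshold, the next genes by p for exon use were GIT1 (adjusted p = 0.0678 in limma), C5orf51 (0.175), ATP6V1A (0.301), COPRS (0.309) and GSTA4 (0.362). Without the shallow libraries GIT1 (adjusted p = 0.00154) and GSTA4 (adjusted p = 0.0121) passed it. The last exon by position of GIT1, an ARF GTPase-activating protein, had 18, 0, 0, 11, 1, 15 and 11 normalised reads in cohort 4 and 0, 0, 1 and 0 in cohort 7a. No cohort 7a animal reached the minimum of the filter, so this exon was tested only because cohort 4 was high. The fit without the shallow libraries kept the exons chosen with all animals, and the GIT1 value of 18 came from a shallow library. Its pass there is thus no independent support for a difference. In ATP6V1A, a subunit of the vacuolar proton pump, the exon was at 81 to 269 in cohort 4 and at 0, 249, 105 and 2 in cohort 7a. GSTA4, a glutathione transferase for lipid peroxidation products, had 0 to 18 in cohort 4 and 21, 29, 17 and 27 in cohort 7a. These 3 exons too were near 0 in some animals and well above it in others within a cohort.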

How the data were processed

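RNA was sequenced after ribosomal RNA depletion with a stranded kit, per the labels' protocols. The submitters' processing notes name CASAVA, FastQC, STAR 2.3.0e and edgeR. For the genome build, the annotation and the rule of counting, the entry is: not given in the sources used here. Gene values as deposited are a signal, reads multiplied by 1 upper-quartile factor per library by the authors. All gene values (100%) were whole reads within 0.02 reads, so reads were recovered. The deposited exon values are a score: the same scaling, rounded to whole numbers by the authors. Of the columns, 2 in each table were not used.

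Groups came from the labels, and each animal is 1 replicate. limma 3.58.1 (R 4.3.3) was fitted to log2(value + 1) with a mean-variance trend, on genes or exons of at least 10 in at least 4 of the 11 libraries. Tests were two-sided, with Benjamini-Hochberg adjustment over all features and a threshold of 0.05. Because of the added 1, fold changes of low genes are understated, and all 95% intervals are limma's. For exon use, diffSplice of limma ran on genes with at least 3 tested exons. The interaction was fitted over all 28 animals. Alternatives were edgeR 4.0.16 and DESeq2 1.42.0 on recovered reads, other filters, pseudocounts, scalings and marker covariates, and animals left out. Scripts were tested on simulated data.

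The members, gene lists and alternatives were chosen with earlier results of these data known. Genes were named by rule: a mean of at least 50 normalised reads; the 10 per direction with the lowest p; up to 4 members per list; and 12 genes regardless of p. Some results that these rules select are not reported here. Of 15521 gene symbols, 14440 matched reference symbols or synonyms. A library's depth sets the value of 1 read, and such intervals cover the spread between animals.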

Additional observations from a re-analysis of the deposited data

Results flagged for a closer look

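In 12 of the 354 groups examined (177 genes in both lighter groups), 1 animal stood apart from its group by Dixon's criterion on the log2 scale, where chance alone would mark about 1 in 20. In cohort 4, replicate 4 had the lowest PLAT, 277 normalised reads. Replicate 1, a shallow library, had the highest PDLIM4, 78.6, and a CSMD3 of 6084. Replicate 5 had an NTS of 88.1, and replicate 3 a CRHR1 of 74.9.

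In cohort 7a, replicate 2 stood apart for 3 genes: NCAN at 5620, SST at 1123 and TBR1 at 378 normalised reads. Replicate 1 stood apart for RORA at 2120 and for TSSK3 at 1.92. Replicate 3 had an NR4A2 of 77.5 and replicate 4 a LUM of 49.3.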

How the results depend on the processing

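Of the gene comparison's 32 alternatives, 31 called 0 genes. With the GABAergic marker score as a covariate, an alternative added after seeing the data, 1 gene was called: APOC1, at a fold of 3.49 (adjusted p = 0.0124), against 1.67 with no covariate. Counts at an unadjusted p under 0.05 ran from 137 to 585 with 1 animal left out and from 70 to 1549 otherwise. All 20 genes of lowest p kept their sign under every alternative, as did 104 of the 171 named genes and 13 of 36 list medians. The 20 genes were picked by their p in these animals, and the alternatives refit the same animals, so their kept signs are no independent support. Without the 2 shallow libraries, the interaction called 364 genes in place of 0, exons 3 in place of 0 and exon use 13 in place of 5. With 1 animal left out, 0 to 1 exons and 2 to 9 genes for exon use were called. A Simes adjustment called 61 genes for exon use, and leaving out the 2 animals highest in CHAT, also added later, called 4. The causes of these changes were not tested. No paired analysis was possible because replicate numbers were given in accession order and link no animals. Depth limits low genes most, since 3 reads are 24.1 normalised reads in the shallowest library.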
